A study of Homo sapiens with 6 samples.

Results

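The genes described here form the insulin-like growth factor (IGF) axis and the insulin receptor substrates. They are the growth factor IGF2, the receptors IGF1R, IGF2R and INSR, the binding proteins IGFBP1, IGFBP2, IGFBP3 and IGFBP4, and the substrates IRS1 and IRS2. Each was found in the count table by the Ensembl identifier that carries its symbol, which gave 10 genes of the 20422 in the table. RNA-Seq was done on HepG2, an established human liver cancer cell line, in 3 libraries of vector control cells (NC) and 3 libraries of cells made to overexpress Flag-tagged APPLE (ORF-Flag). APPLE is a microprotein read from an open reading frame of the long noncoding RNA ASH1L-AS1, and the level of that RNA was not analysed here. The sample labels describe plasmids brought into HepG2, whereas the study's methods describe stable lines made with lentiviral vectors and puromycin. No source says whether the 3 libraries of a group came from separate cultures, so each p-value measures only the spread between these libraries, which may be technical.

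IGF ligands bind IGF1R, a receptor tyrosine kinase close in structure to the insulin receptor INSR, and both receptors pass their signal to IRS1 and IRS2 and on to the kinases PI3K and AKT. IGFBPs hold IGFs in the extracellular fluid and limit or prolong their access to receptors, and IGF2R carries IGF2 to the lysosome. In the liver, insulin is known to lower transcription of IGFBP1 through AKT, which keeps FOXO transcription factors out of the nucleus, and the liver is the main source of circulating IGFBP1.

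The totals were 20081203, 24907524 and 30088457 counts in NC replicates 1, 2 and 3, and 26866148, 17494668 and 27015836 counts in ORF-Flag replicates 1, 2 and 3. The 10 genes together took between 0.118% and 0.126% of the counts of a library. The gene of the 10 that passed the test was IGFBP1, which was 1.16-fold higher in ORF-Flag cells. Of the 8 genes with enough counts to be tested, 1 was higher and 0 were lower by edgeR's quasi-likelihood test, with a threshold of 0.05 on the p-value after Benjamini-Hochberg adjustment over all 12386 genes tested. Over all tested genes 4.45% passed that threshold in either direction, 2.47% as higher and 1.98% as lower in ORF-Flag. At an unadjusted p below 0.05 there was also 1 of the 8, beside 18.5% of all tested genes (2293 genes). This count was 4 without NC replicate 3, where 2677 genes of the whole table had such a p. It was 2 without NC replicate 1 (2073 genes) and 2 without ORF-Flag replicate 1 (1946 genes). DESeq2, limma-trend and limma-voom each called 1 as higher and 0 as lower. IGFBP2 and IGFBP3 fell below the filter on low counts and were not tested.

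**Figure D1:**
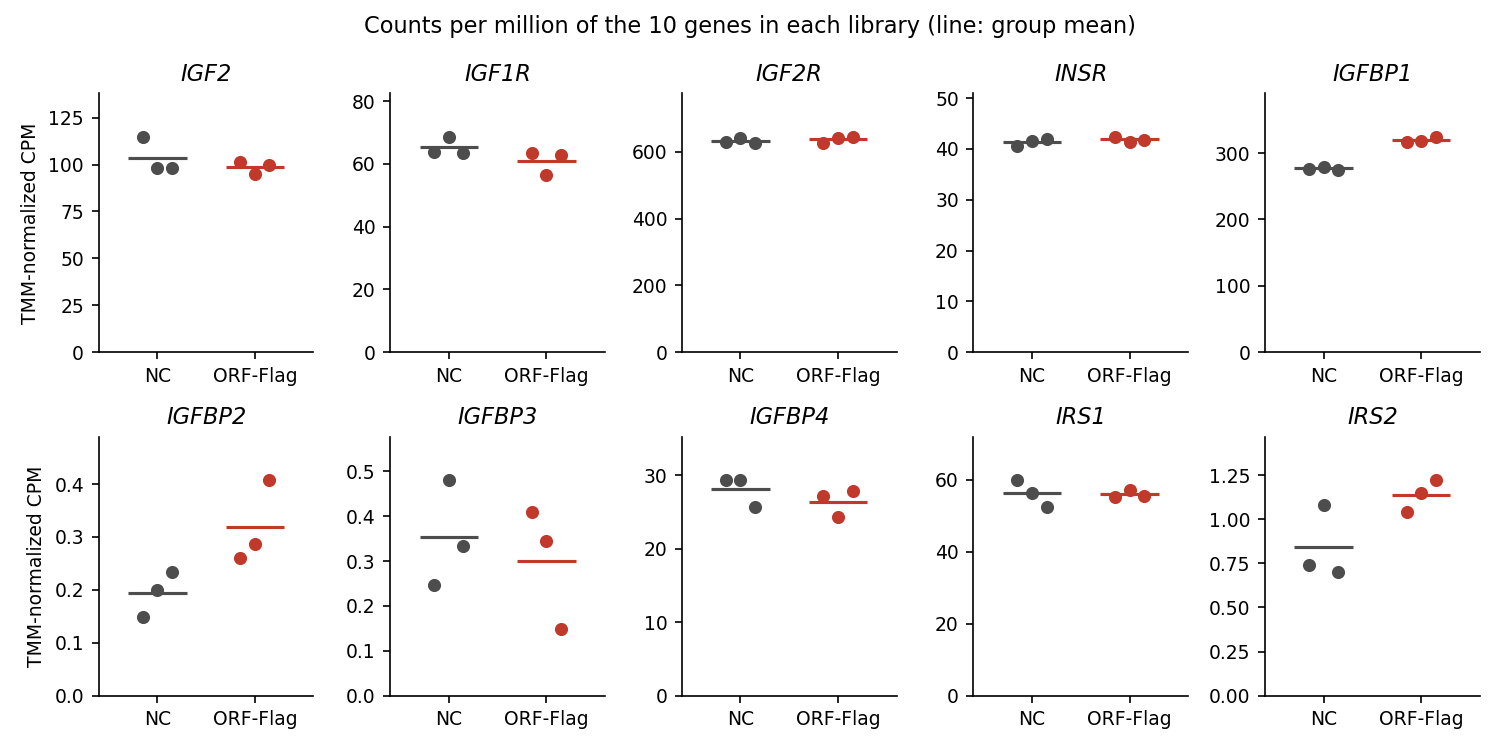
CPM (counts scaled to a library total of 1000000, after TMM normalization) of each of the 10 genes in the 3 NC libraries and the 3 ORF-Flag libraries, 1 point per library, with a line at the group mean and each axis starting at 0. IGFBP1 lies between 274.9 and 279.7 CPM in NC and between 317.0 and 324.9 CPM in ORF-Flag, whereas the points of IGF2, IGF1R, IGF2R, INSR, IRS1 and IGFBP4 overlap between the groups.

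IGF2, the growth factor that fetal liver and many liver tumors produce, had 114.9, 98.13 and 97.99 CPM in the NC libraries and 101.5, 95.19 and 99.86 CPM in the ORF-Flag libraries (TMM normalization sets the libraries on 1 scale). NC replicate 1 stood above the other 5 libraries, and the groups overlapped. The difference was a log2 fold change of -0.062 (SE 0.049, 95% interval -0.16 to 0.040, adjusted p 0.56 in edgeR), and it turned to 0.014 without NC replicate 1. The gene (ENSG00000167244.22) lies on chromosome 11, minus strand, from 2129112 to 2149603 of GRCh38, as are all gene positions given here, in the GENCODE release 29 annotation. INS-IGF2 and ENSG00000284779, which run through the same locus on the same strand, share 5144 of the 6979 exon bases of IGF2, or 73.7%. Both were listed at 0 counts in all 6 libraries, and how reads on shared bases were assigned is not given in the sources used here, so the count of IGF2 may leave such reads out.

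The other ligands of these receptors were near or at 0. IGF1, the ligand that growth hormone induces in normal liver, had 0, 2 and 1 counts in NC and 3, 0 and 1 counts in ORF-Flag. INS, which encodes insulin, was at 0 in all 6 libraries, as was PDX1, the other gene fixed as a beta cell marker. In a library, 3 counts correspond to between 0.0997 and 0.171 CPM, and IGF1 was at or below that in each library.

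IGF1R (ENSG00000140443.15, chromosome 15, plus strand, 98648539 to 98964530), the receptor through which IGF ligands signal growth and survival, had 63.8, 68.66 and 63.35 CPM in NC and 63.54, 56.41 and 62.89 CPM in ORF-Flag. ORF-Flag replicate 2 was the lowest of the 6 and NC replicate 2 the highest, and the other 4 lay within a narrow span, so the groups overlapped. The log2 fold change was -0.093 (SE 0.050, 95% interval -0.20 to 0.0098, adjusted p 0.33 in edgeR), and it was -0.056 when NC replicate 2 was left out and -0.047 when ORF-Flag replicate 2 was. INSR (ENSG00000171105.14, chromosome 19, minus strand, 7112255 to 7294034), the insulin receptor, showed 40.56, 41.64 and 42.03 CPM in NC and 42.42, 41.42 and 41.74 CPM in ORF-Flag. All 6 values of INSR lay close together, with a log2 fold change of 0.015 (SE 0.050, 95% interval -0.088 to 0.12, adjusted p 0.92). For INSR the interval spans changes from -5.89% to 8.53%.

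IGF2R (ENSG00000197081.16, chromosome 6, plus strand, 159969099 to 160113507), which clears IGF2 from the cell surface and also sorts lysosomal enzymes, was the receptor gene with the most counts. Its libraries gave 629.5, 642.8 and 626.2 CPM in NC and 625.7, 641.6 and 646.0 CPM in ORF-Flag. The order of the 6 libraries did not follow the groups. The log2 fold change was 0.011 (SE 0.031, 95% interval -0.053 to 0.076, adjusted p 0.90 in edgeR), and as a change of level the interval runs from -3.62% to 5.38%.

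**Figure D2:**
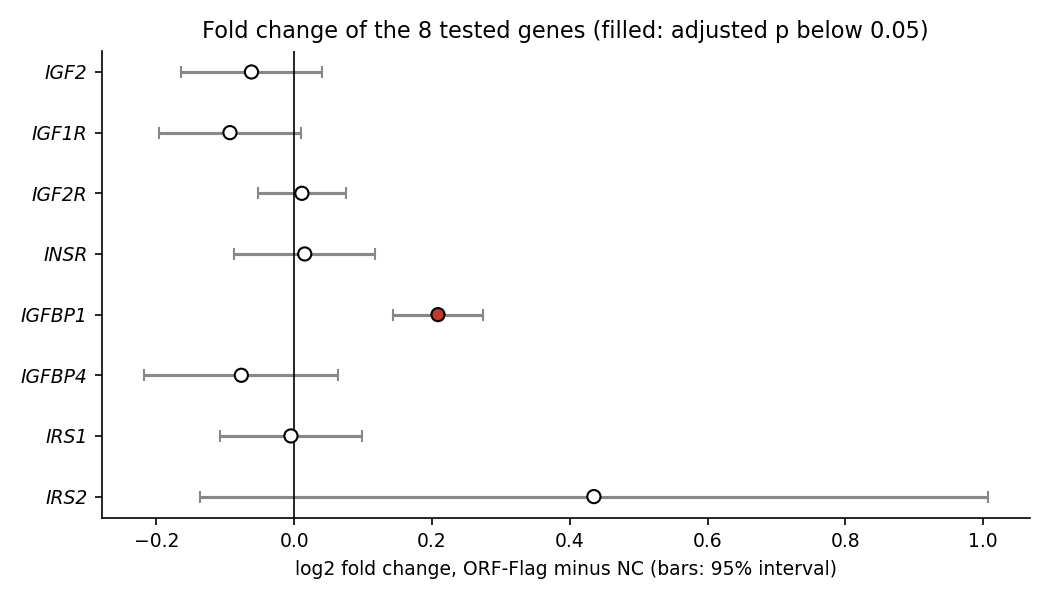
Log2 fold change, ORF-Flag minus NC, of the 8 tested genes from the edgeR fit of 3 against 3 libraries, with bars for the 95% interval and a filled point where the adjusted p was below 0.05. IGFBP1 is the filled point at 0.21, and the bar of IRS2, the gene with the fewest counts among those tested, runs from -0.14 to 1.01.

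Among the binding proteins, IGFBP1 (ENSG00000146678.10, chromosome 7, plus strand, 45888357 to 45893668 of GRCh38) had 5590, 6985 and 8227 counts in NC and 8511, 5542 and 8771 counts in ORF-Flag. These correspond to 276.5, 279.7 and 274.9 CPM in NC, and to 317.0, 318.4 and 324.9 CPM in ORF-Flag. Every ORF-Flag library lay above every NC library, and the spread within a group was small beside the gap, with 277.0 ± 2.44 CPM in NC and 320.1 ± 4.21 CPM in ORF-Flag (mean ± SD, n = 3). Of the 8 tested genes, 1 showed such a separation, and in either direction 22.4% of all tested genes did. IGFBP1 was higher by 15.6% (95% interval 10.4% to 20.9%), a log2 fold change of 0.21 with SE 0.032 and an adjusted p of 0.00023 in edgeR. By p-value it ranked 47 among the 12386 tested genes and 32 among those with a higher level in ORF-Flag, and by level in NC it ranked 537.

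The change in IGFBP1 was of about the size typical for a called gene, since the median absolute log2 fold change of the 551 called genes was 0.23. It held without each library in turn, with a log2 fold change between 0.20 and 0.22 and an adjusted p of at most 0.0058. It was not called against a fold change of 1.2 with glmTreat, a test that asks whether a change exceeds a set size (adjusted p 1), and 17 genes of the whole table were. In GENCODE release 29, IGFBP1 shares no exon base with another gene of the count table or with an annotated gene on the opposite strand. In RNA from whole cultures, more RNA per cell and more cells with the RNA cannot be told apart.

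**Figure D3:**
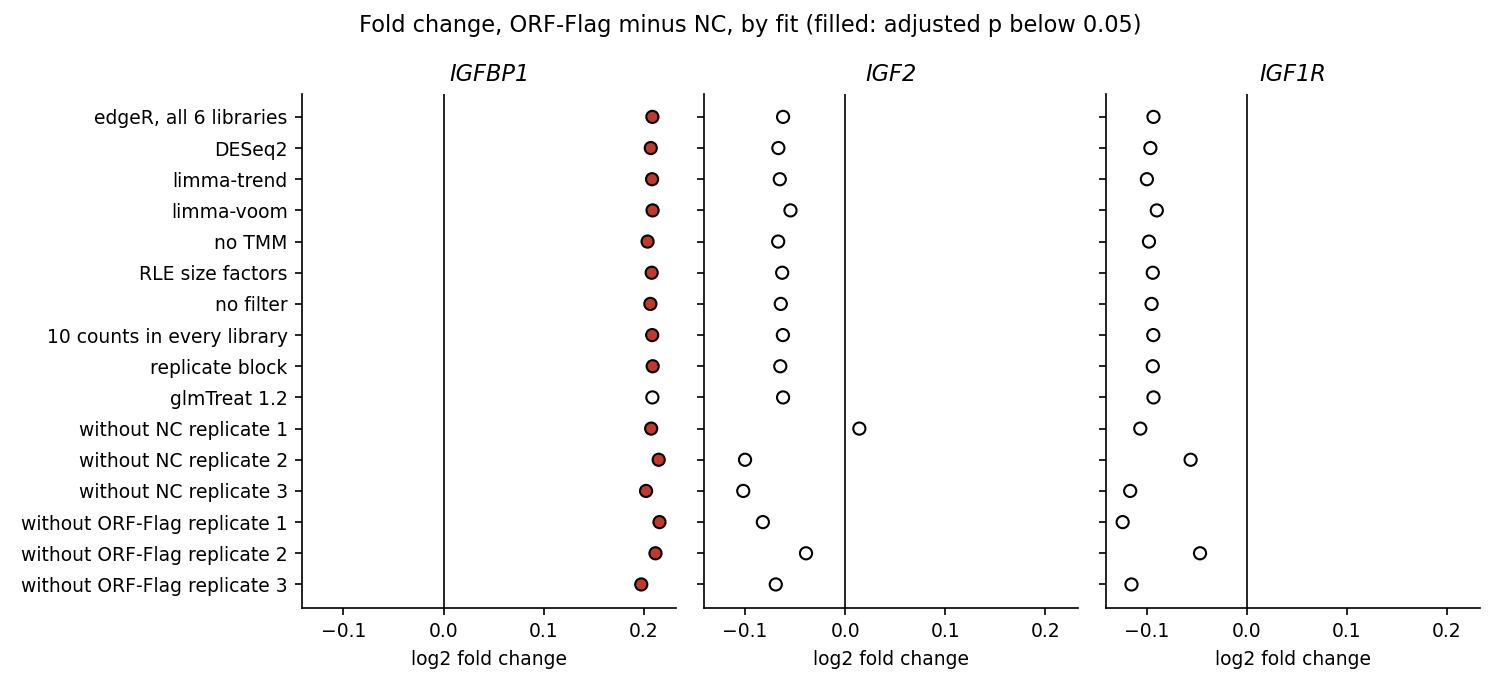
Log2 fold change, ORF-Flag minus NC, of IGFBP1, IGF2 and IGF1R in the edgeR fit of all 6 libraries and in 15 other fits, with a filled point where the adjusted p was below 0.05. IGFBP1 stays between 0.20 and 0.22 and is filled in all fits except glmTreat, and IGF2 crosses 0 in the fit without NC replicate 1.

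IGFBP4 (ENSG00000141753.7, chromosome 17, plus strand, 40443461 to 40457731), which mostly restrains IGF action and is cleaved by the protease PAPPA, had 29.33, 29.35 and 25.66 CPM in NC and 27.15, 24.3 and 27.85 CPM in ORF-Flag. The groups overlapped, and the log2 fold change was -0.077 (SE 0.068, 95% interval -0.22 to 0.064, adjusted p 0.61 in edgeR), with values from -0.028 without ORF-Flag replicate 2 to -0.14 without NC replicate 3. IGFBP3 (ENSG00000146674.16), the main carrier of IGFs in serum, had 5, 12 and 10 counts in NC and 11, 6 and 4 counts in ORF-Flag. IGFBP2 (ENSG00000115457.10), a binding protein abundant in fetal liver, had 3, 5 and 7 counts in NC and 7, 5 and 11 counts in ORF-Flag. The CPM of IGFBP2 lay between 0.1484 and 0.2339 in NC and between 0.2607 and 0.4074 in ORF-Flag, without overlap, but rest on few counts. At such counts no difference was detectable for either gene: without the filter, edgeR gave log2 fold changes of -0.28 for IGFBP3 (adjusted p 0.86) and 0.68 for IGFBP2 (adjusted p 0.66).

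IGFBP1 and IGFBP3 are neighbors on chromosome 7. IGFBP3 lies on the minus strand from 45912245 to 45921874, so the ends of both genes face each other across 18576 bases. In NC they had 168 and 0.0774 CPM per kilobase of exon, so the neighbors differed widely in level. IGFBP2, on the plus strand of chromosome 2 from 216632828 to 216664436, likewise neighbors IGFBP5, on the minus strand from 216672105 to 216695525, and IGFBP5 was at 0 counts in all 6 libraries.

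Of the substrates that carry the signal from both receptors, IRS1 (ENSG00000169047.6, chromosome 2, minus strand, 226731317 to 226799759) had 59.94, 56.37 and 52.46 CPM in NC and 55.23, 57.1 and 55.56 CPM in ORF-Flag. The ORF-Flag values fell inside the range of NC. The log2 fold change was -0.0047 (SE 0.050, 95% interval -0.11 to 0.099, adjusted p 0.98 in edgeR). Its sign turned without NC replicate 1 (log2 fold change 0.041) and without ORF-Flag replicate 1 (0.0043), and without ORF-Flag replicate 3 it lay at 0. IRS2 (ENSG00000185950.9, chromosome 13, minus strand, 109752698 to 109786568), which shares insulin signaling in normal liver with IRS1, had 15, 27 and 21 counts in NC and 28, 20 and 33 counts in ORF-Flag. This corresponds to 0.7419, 1.081 and 0.7016 CPM in NC and 1.043, 1.149 and 1.222 CPM in ORF-Flag. NC replicate 2 lay among the ORF-Flag values, and the log2 fold change of IRS2 was 0.43 with SE 0.28 (95% interval -0.14 to 1.01, adjusted p 0.43 in edgeR). As a change of level, the interval for IRS2 runs from -9.02% to 101%, and the log2 fold change was 0.66 without NC replicate 2 and 0.29 without NC replicate 3.

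Per kilobase of exon, IGFBP1 stood above the other 9 genes, with 168 ± 1.47 CPM per kilobase in NC and 194 ± 2.55 in ORF-Flag (mean ± SD, n = 3). IGF2R came next with 35.5 ± 0.494 in NC, followed by IGF2 with 14.9 ± 1.39 and IGFBP4 with 12.8 ± 0.965. On this length IGF2 and IGFBP4 did not differ beyond their spread, whereas with the longest transcript as length IGF2 had 18.6 ± 1.74 and stood apart from IGFBP4. IRS1 with 5.65 ± 0.376, IGF1R with 4.68 ± 0.211 and INSR with 3.96 ± 0.0731 formed the middle of the order, each apart from the next by more than both SDs. With the longest transcript as length, IRS1 had 5.80 ± 0.386 and IGF1R 5.33 ± 0.241, which did not differ beyond their spread. IRS2, IGFBP3 and IGFBP2 were lowest, with 0.103, 0.0774 and 0.0407 CPM per kilobase in NC, and IRS2 and IGFBP3 did not differ beyond their spread. By the same alternative length IGFBP3 had 0.147 ± 0.0489 and IRS2 had 0.103 ± 0.0256. The order of these means turned, but they again did not differ beyond their spread. The place of IGF2 rests on its length too. With its whole count divided by only the exon bases that no other row of the count table shares, IGF2 had 56.5 ± 5.30 and passed IGF2R. That length was chosen after the data were seen. The value holds only if reads on shared bases were left out of the count, which is not known.

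**Figure D4:**
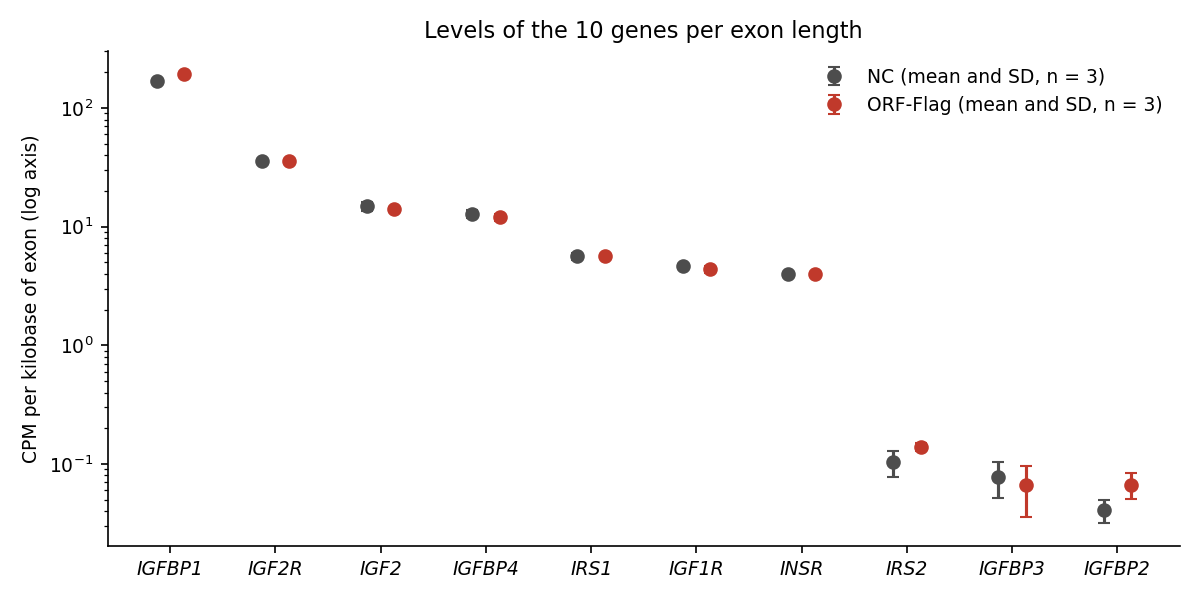
Mean CPM per kilobase of exon in NC and ORF-Flag for each of the 10 genes, on a log axis, with bars for the SD of 3 libraries, ordered by the NC mean. IGFBP1 is highest with 168 in NC and 194 in ORF-Flag, and IRS2, IGFBP3 and IGFBP2 lie at or below 0.14 in both groups.

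Ratios of counts within a library need no scaling between libraries. The log2 ratio of IGFBP1 to IGFBP4 was 3.24, 3.25 and 3.42 in NC and 3.55, 3.71 and 3.54 in ORF-Flag, a difference of 0.30. Every ORF-Flag value exceeded every NC value, with p = 0.10 in a two-sided exact permutation test, the smallest p that 3 against 3 libraries allow. The log2 ratio of INSR to IGF1R was -0.65, -0.72 and -0.59 in NC and -0.58, -0.45 and -0.59 in ORF-Flag, with a difference of 0.12 and the same exact p of 0.10. The groups did not overlap here either, although NC replicate 3 and ORF-Flag replicate 3 both round to -0.59. For IRS2 to IRS1 the difference was 0.47 (exact p 0.20), for IGF2R to IGF2 it was 0.077 (exact p 0.60), and for IGFBP1 to IGFBP2 and IGFBP1 to IGFBP3 it was -0.50 and 0.52 (exact p 0.20 and 0.50). Single libraries decided several of these values: the difference for IGFBP1 to IGFBP3 ranged from 0.058 without ORF-Flag replicate 3 to 0.81 without ORF-Flag replicate 1, that for IGFBP1 to IGFBP2 was -0.32 without either NC replicate 1 or ORF-Flag replicate 3, without NC replicate 1 that for IGF2R to IGF2 was -0.0034, and without ORF-Flag replicate 2 that for INSR to IGF1R was 0.069. With Benjamini-Hochberg adjustment over the 6 ratios the smallest adjusted p was 0.30, and with 3 against 3 libraries none could have reached 0.05.

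Beyond the 10 genes, 16 further genes of the IGF axis were examined, of which 7 were tested and 0 were called by edgeR. At an unadjusted p below 0.05 there were 2 of the 7, IGFBP7 (higher) and IGF2BP1 (lower), each without overlap between groups, beside 18.5% of all tested genes at that p and 22.4% without overlap, and the median log2 fold change was -0.017, beside -0.0012 for all tested genes. IGFBP7, a secreted protein related to the IGFBPs that binds IGFs weakly, had log2 fold change 0.26 (SE 0.10, adjusted p 0.15). IGFBP6, which prefers IGF2, gave -0.15 (adjusted p 0.63), with values from -0.060 without NC replicate 2 to -0.31 without NC replicate 3, and IGFALS, the subunit that completes the serum complex of IGFs with IGFBP3, gave 0.12 (adjusted p 0.89) at between 16 and 32 counts. IGF2BP1, IGF2BP2 and IGF2BP3, which bind IGF2 mRNA in fetal and tumor cells, had log2 fold changes of -0.090, -0.020 and 0.093 (adjusted p 0.25, 0.85 and 0.28). That of IGF2BP3 was 0.046 and that of IGF2BP2 -0.0040 without ORF-Flag replicate 3, and IGF2BP2 had -0.0060 without NC replicate 2 and -0.034 without ORF-Flag replicate 2.

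Downstream of the receptors, 0 of 14 tested adaptors and receptor brakes were called by edgeR, from a list of 17, beside 4.45% of all tested genes. The list had 1 gene at an unadjusted p below 0.05, beside 18.5% of all tested genes, and a median log2 fold change of -0.0098. The gene with that p was SOCS2, a suppressor of cytokine and growth hormone signaling, which was named after its values were seen and had log2 fold change 0.40 and adjusted p 0.056. GRB10, an adaptor that damps both INSR and IGF1R, had log2 fold change 0.033 (adjusted p 0.87). In the PI3K-AKT-mTOR list, 26 of 28 genes were tested, 1 was higher and 1 was lower, beside 2.47% and 1.98% of all tested genes. At an unadjusted p below 0.05 there were 5 of the 26, beside 18.5% of all tested genes, and the median log2 fold change was 0.0175.

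RICTOR, the defining subunit of mTOR complex 2, which phosphorylates AKT, had 17.41, 19.1 and 19.55 CPM in NC and 24.69, 23.61 and 24.67 CPM in ORF-Flag. The groups did not overlap, and RICTOR was 1.30-fold higher (log2 fold change 0.38, SE 0.067, adjusted p 0.0013 in edgeR). DEPTOR, a protein that binds and inhibits mTOR, had 4.995, 3.924 and 4.21 CPM in NC and 2.533, 3.045 and 2.741 CPM in ORF-Flag. All NC libraries exceeded all ORF-Flag libraries for DEPTOR, with a log2 fold change of -0.66 (SE 0.16, adjusted p 0.015). Its call was lost without NC replicate 1 (adjusted p 0.060), ORF-Flag replicate 1 (0.082) or ORF-Flag replicate 3 (0.074).

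AKT2, the AKT kinase most tied to insulin action in liver, had log2 fold change -0.14 (SE 0.045, adjusted p 0.069), with no overlap between groups, and was called without NC replicate 3 (log2 fold change -0.18, adjusted p 0.016). In edgeR, AKT2 was also called with the replicate number as a block (adjusted p 0.049) and without the filter on low counts (adjusted p 0.046). It was not called in 12 of 15 other fits. Its adjusted p was between 0.14 and 0.22 without each of the other libraries, and 0.12 in DESeq2. AKT1 had -0.048 (adjusted p 0.55), or -0.0215 without NC replicate 1, and PIK3R1, the regulatory subunit of PI3K, had -0.038 (adjusted p 0.82). The growth hormone axis had 0 of 3 tested genes called by edgeR, from a list of 5, beside 4.45% of all tested genes. It had 1 gene at an unadjusted p below 0.05, beside 18.5% of all tested genes. That gene, STAT5A, was named after its values were seen (log2 fold change -0.73, adjusted p 0.063).

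FOXO factors are held back by AKT and are known to switch on IGFBP1, IRS2 and INSR, among other genes. Of the factors themselves, FOXO1 had log2 fold change -0.0016 (adjusted p 1) and FOXO3 had -0.11 (adjusted p 0.72). Of the 4 factors 3 were tested and 0 were called by edgeR, beside 4.45% of all tested genes. At an unadjusted p below 0.05 there were 0 of the 3, beside 18.5% of all tested genes. The list of FOXO target genes had 13 of 16 genes tested, with 3 higher and 0 lower, beside 2.47% and 1.98% of all tested genes. At an unadjusted p below 0.05 there were 5 of the 13, beside 18.5% of all tested genes, and the median log2 fold change was 0.14, with 11 values above 0. Among all tested genes, 6133 of 12386 were above 0. Leaving out the 3 that belong to the IGF axis, 2 of 10 tested were higher, with a median of 0.13.

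GADD45A, a stress gene that p53 also induces, had 43.13, 43.36 and 42.37 CPM in NC and 51.62, 50.44 and 49.97 CPM in ORF-Flag. It was 1.18-fold higher without overlap (log2 fold change 0.24, SE 0.048, adjusted p 0.0042 in edgeR). TXNIP, an inhibitor of thioredoxin and of glucose uptake that glucose itself induces, had 36.35, 34.63 and 35.25 CPM in NC and 42.76, 39.01 and 42.26 CPM in ORF-Flag. It was 1.17-fold higher without overlap (log2 fold change 0.23, SE 0.054, adjusted p 0.015), and its call was lost without NC replicate 2 (adjusted p 0.092), ORF-Flag replicate 1 (0.081) or ORF-Flag replicate 3 (0.094). The gluconeogenic targets were nearly silent: PCK1 had at most 5 counts in a library, and G6PC1 had between 17 and 26 counts and log2 fold change 0.19 (adjusted p 0.81). GADD45A and TXNIP are thus the called genes of this list outside the IGF axis, and both are also known to answer to inputs other than FOXO.

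**Figure D5:**
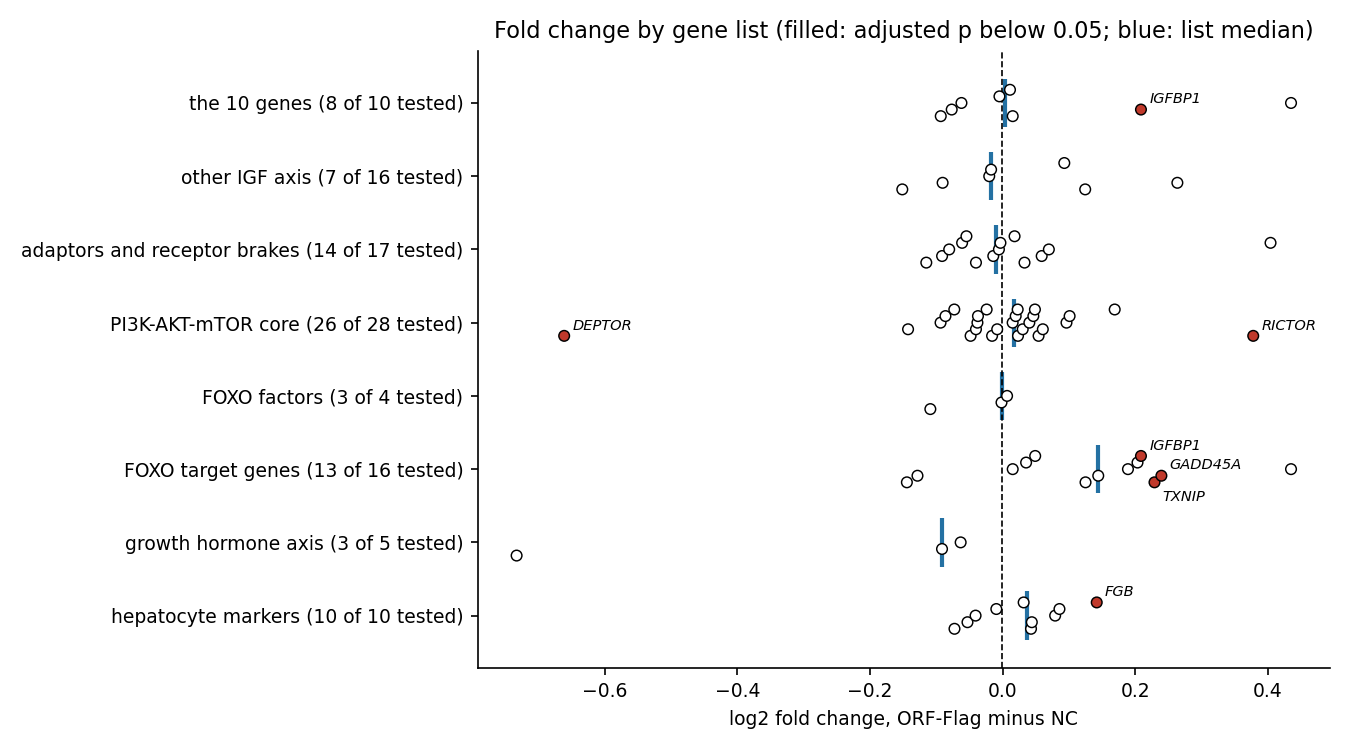
Log2 fold change, ORF-Flag minus NC, of each tested gene by gene list, with filled points for an adjusted p below 0.05 in edgeR, a blue bar at the list median and a dashed line at the median of all tested genes. The median of the FOXO target genes is 0.14 and that of the PI3K-AKT-mTOR core is 0.0175, and the filled points are IGFBP1, RICTOR, DEPTOR, GADD45A, TXNIP and FGB.

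Promoter letters were searched as a description of the IGF axis and the FOXO target list, with no bearing on the differences between groups, and the stretches that held a match are shown. The 250 bases before each start in RefSeq (GRCh38.p14) were searched on both strands for CAAAACA, the core letters of the insulin response element, and for GTAAACA, the core letters that FOXO proteins bind. Of the 10 genes, 8 were matched by symbol and searched, and IGF2 and IGFBP1 were not. IRS2 held CAAAACA on the opposite strand, printed as TGTTTTG, from base -40 to base -34 before its start, and no other of the 8 held either set of letters. Among the FOXO target genes, 12 had an entry, TXNIP held GTAAACA from base -124 to base -118 before the farther upstream of its annotated starts, and GADD45A was not searched. For comparison, CAAAACA was found in 4.30% and GTAAACA in 2.98% of 35116 promoter windows, and a match describes letters, not a binding site. The stretches with the matched letters in capitals are chr13:109786584-109786663 (minus strand) for IRS2 and chr1:145996657-145996743 (minus strand) for TXNIP.
IRS2: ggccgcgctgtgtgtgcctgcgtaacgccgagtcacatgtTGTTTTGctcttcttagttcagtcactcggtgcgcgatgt
TXNIP: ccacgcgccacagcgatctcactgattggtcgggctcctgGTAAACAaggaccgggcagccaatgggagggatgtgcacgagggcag

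The labelled cell type was checked against markers. All 10 hepatocyte markers were tested, with ALB, which encodes albumin, at between 6714 and 7586 CPM and AFP at between 713 and 755 CPM, while TTR had between 5.63 and 6.66 CPM. Of these 10, 1 was called, beside 4.45% of all tested genes. It was FGB, which encodes a fibrinogen chain, with 343.7, 360.5 and 381.3 CPM in NC and 407.0, 399.7 and 392.1 CPM in ORF-Flag (log2 fold change 0.14, SE 0.036, adjusted p 0.023 in edgeR). FGB lost its call in 5 of the 6 fits without a library, with adjusted p between 0.062 and 0.12, all except that without NC replicate 3. At an unadjusted p below 0.05 there were 4 of the 10 hepatocyte markers, beside 18.5% of all tested genes: FGB, ALB (log2 fold change 0.079, adjusted p 0.21) and SERPINA1 (0.086, adjusted p 0.13), each higher without overlap, and APOB (-0.073, adjusted p 0.24), whose groups overlapped. The groups did not overlap for 3 of the 10 markers, beside 22.4% of all tested genes in either direction. ALB, SERPINA1 and APOB were named after their values were seen, and the median log2 fold change of the list was 0.037. The levels of the 10 hepatocyte markers summed to 28412, 28999 and 29358 CPM in NC and 29525, 29100 and 29151 CPM in ORF-Flag. APOB and ALB were the most abundant of the 10, and the part of these markers in the value of IGFBP1 was not tested. PTPRC, CD3E and DCN, markers of blood cells and fibroblasts, were at 0 in all 6 libraries. CDH5 of endothelial cells had at most 1 count. In the blood, endothelial and fibroblast lists, 0 of the 5 tested genes were called by edgeR, beside 4.45% of all tested genes. At an unadjusted p below 0.05 there was 1 of the 5, beside 18.5% of all tested genes. That gene was PECAM1, an endothelial adhesion molecule, named after its values were seen, with between 3.844 and 4.778 CPM in NC and between 5.285 and 6.034 CPM in ORF-Flag (log2 fold change 0.39, adjusted p 0.096).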

How the data were processed

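The table the authors deposited holds unnormalized read counts of 20422 genes in 3 NC and 3 ORF-Flag libraries. The submitters' processing notes name cutadapt 1.11, HISAT2 2.1.0, featureCounts 1.6.0, edgeR and GRCh38. The strand setting, the annotation release and the handling of reads on shared bases are not given in the sources used here. Symbols were matched for 20421 identifiers. The counts were fitted as deposited in edgeR 4.0.16 (R 4.3.3), with filterByExpr, which kept 12386 genes, TMM, glmQLFit, glmQLFTest and Benjamini-Hochberg adjustment over these genes. Standard errors and 95% intervals were derived from the quasi-likelihood F statistic. Exon lengths and coordinates came from GENCODE release 29 on GRCh38. Alternatives were DESeq2 1.42.0, limma-trend and limma-voom (limma 3.58.1), other scalings and filters, the replicate block, glmTreat and each library left out. Named genes were the 10 genes, the called genes of each list and 18 others fixed by name, not all of which are reported here. The members and lists were chosen with earlier results of these data known. A planned comparison of protein sequences was not run.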

Additional observations from a re-analysis of the deposited data

How the results depend on the processing

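IGFBP1 kept its direction in 15 of 15 other fits and its call in 14. Against a fold change of 1.2, glmTreat called 17 genes in place of 551, and 0 of the 10 genes, with 0 at an unadjusted p below 0.05, while DESeq2, limma-trend and limma-voom called 1. In the other pathway lists, 63 of 83 genes were tested, with 3 higher and 1 lower, beside 2.47% and 1.98% of all tested genes. There glmTreat called 0 higher and 0 lower. In limma-trend 4 were higher and 2 lower, with 594 genes called in the whole table. The fit without a filter gave 4 higher and 3 lower, with 824 genes called in the whole table. Leaving out 1 library gave between 199 and 1058 called genes (1058 without NC replicate 3, 459 without NC replicate 1, 267 without NC replicate 2, and 300, 278 and 199 without ORF-Flag replicate 1, 2 or 3), 1 higher and 0 lower of the 10 genes, between 2 and 3 higher and between 0 and 2 lower in the other lists. Small differences changed sign without 1 library: IGF2 ranged from -0.10 to 0.014, IRS1 from -0.056 to 0.0405, IGFALS from -0.21 to 0.34, GRB10 from -0.017 to 0.0795, PIK3R1 from -0.12 to 0.017, FOXO1 from -0.060 to 0.089, FOXO3 from -0.18 to 0.034 and G6PC1 from -0.043 to 0.35 on the log2 scale, and FOXO1 was 0.011 in limma-trend. IGF2R and INSR stayed above 0, from 0.0017 to 0.025 and from 0.0015 to 0.026. The cause was not tested.

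The groups share replicate numbers, and the main fit did not treat libraries with the same number as pairs. Libraries with the same number deviated together weakly (correlations 0.0666, 0.0266 and 0.0448). Those with different numbers had correlations between -0.078 and 0.0304. With the replicate block 731 genes were called, 1 of the 10 genes higher and 0 lower, and 4 higher and 3 lower in the other lists. There the log2 fold change of FOXO1 was 0.012, and AKT2 was called (adjusted p 0.049, between 0.016 and 1 over all fits), as it was without the filter (adjusted p 0.046).

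Depth limits IRS2, IGFBP2 and IGFBP3, for which counting error alone is large. For IGF2 and IRS2, antisense genes cover 4.77% and 1.41% of exon bases, for RICTOR and DEPTOR they cover 1.69% and 9.61%, and reads of either strand cannot be told apart without the strand setting.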
